A study of Homo sapiens with 8 samples.

Results

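The 10 genes described here are REST and 9 genes of the neuronal cytoskeleton, synapse and secretory granule: NEFL, NEFM, NEFH, INA, TUBB3, STMN2, SYN1, SNAP25 and SCG2. They were taken by name from the 19970 protein-coding genes annotated on chromosomes 1 to 22 and X, and each was described over its gene span plus 20 kb on either side. The 8 libraries were made by ATAC-seq, a method that uses the Tn5 transposase to cut exposed DNA and tag it for sequencing. All 8 came from HEK293T, a line derived from human embryonic kidney with the large T antigen of SV40, and known for transcribing many neuronal genes. Per the labels, 4 libraries (called H2A below) came from cells with an H2A lentivector and 4 (called E92K) from cells with an H2A(E92K) lentivector. The cells of both groups were untreated and were grown in the same serum-containing medium. E92K exchanges a glutamate for a lysine in the acidic patch, the charged surface of the nucleosome to which many chromatin proteins bind. The labels do not say that the cells' own H2A genes were altered, which promoter drove the vector, or whether the libraries of a group came from separate cultures, so the p-values below measure only the spread between these libraries.

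REST is a zinc-finger repressor that binds RE1, a bipartite DNA element found near many neuronal genes, and brings in corepressor complexes that hold the RCOR1 (CoREST) and SIN3A scaffolds, histone deacetylases and the demethylase KDM1A. It is known for keeping neuronal genes silent outside the nervous system. In neurons NEFL, NEFM, NEFH and INA build the neurofilament, TUBB3 is a neuron-enriched beta-tubulin, and STMN2 regulates microtubule growth in axons. SYN1 coats synaptic vesicles, SNAP25 is a SNARE protein of vesicle fusion, and SCG2 is a granin of dense-core vesicles. ATAC-seq reads the exposure of DNA and not transcription, so the values below are peaks, not expression.

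The RE1 element was searched as a left arm of 9 letters, TTCAGCACC, a gap of 2 bp and a right arm of 9 letters, GGACAGCGC, on both strands of hg38 and with up to 3 mismatches. The windows of 7 of the 10 genes held 9 such matches, whereas those of REST, NEFL and SCG2 held no match with up to 3 mismatches. Of the 9 matches, 5 are shown: those in the windows of INA, TUBB3 and SYN1, for which RefSeq promoter sequences were also at hand. The matches of NEFM, NEFH, STMN2 and SNAP25 are not shown, although those of NEFH and SNAP25 carry 1 mismatch. Each is written 5′ to 3′ on the matching strand with 10 flanking bases, and capitals mark letters equal to the searched arms. They lie on hg38 at chrX:47620061-47620100 (minus strand), chr16:89926494-89926533 (plus), chr10:103278999-103279038 (minus), chr10:103265901-103265940 (minus) and chr16:89921248-89921287 (minus).
SYN1, 224 bp upstream, peak in 8 libraries: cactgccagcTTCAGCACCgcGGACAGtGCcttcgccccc
TUBB3, intron 3.17 kb downstream, peak in 8 libraries: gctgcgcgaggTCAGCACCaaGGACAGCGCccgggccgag
INA, intron 1.88 kb downstream, peak in no library: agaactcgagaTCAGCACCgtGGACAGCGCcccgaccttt
INA, 11.2 kb upstream, peak in 3 libraries: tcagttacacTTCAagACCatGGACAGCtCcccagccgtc
TUBB3, 2.07 kb upstream, peak in no library: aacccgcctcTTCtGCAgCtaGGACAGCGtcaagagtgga
The upper 3 each carry 1 mismatch and the lower 2 carry 3.

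Promoter sequences of 4 members, from RefSeq on GRCh38.p14, show where the measured promoters differ in composition. Each runs from 250 bases before to 50 bases after an annotated start. Capitals mark the GC box GGGCGG (or CCGCCC, its other strand), the cyclic AMP response element TGACGTCA and the RE1 match; CCAAT and TATAAA were searched too and are not marked. The first TUBB3 start, at chr16:89921675-89921974, was under a peak in none of the 8 lists, whereas the second, at chr16:89923092-89923391, was under a peak in all of them. The REST promoter (chr4:56907650-56907949, plus strand) and the SYN1 promoter (chrX:47619808-47620107, minus strand) were under a peak in all 8.
TUBB3, upstream start: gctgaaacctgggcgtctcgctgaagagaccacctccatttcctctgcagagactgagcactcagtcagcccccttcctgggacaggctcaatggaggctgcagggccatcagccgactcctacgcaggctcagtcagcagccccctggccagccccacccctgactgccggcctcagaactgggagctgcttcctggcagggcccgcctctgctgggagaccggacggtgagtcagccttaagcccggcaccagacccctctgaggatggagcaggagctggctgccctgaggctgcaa
TUBB3, main start: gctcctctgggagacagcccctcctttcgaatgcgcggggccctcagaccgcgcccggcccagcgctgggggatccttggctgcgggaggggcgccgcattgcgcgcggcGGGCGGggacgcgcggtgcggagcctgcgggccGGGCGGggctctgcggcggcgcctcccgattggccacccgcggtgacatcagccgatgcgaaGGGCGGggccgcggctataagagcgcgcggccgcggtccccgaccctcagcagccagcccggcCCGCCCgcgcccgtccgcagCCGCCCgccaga
REST: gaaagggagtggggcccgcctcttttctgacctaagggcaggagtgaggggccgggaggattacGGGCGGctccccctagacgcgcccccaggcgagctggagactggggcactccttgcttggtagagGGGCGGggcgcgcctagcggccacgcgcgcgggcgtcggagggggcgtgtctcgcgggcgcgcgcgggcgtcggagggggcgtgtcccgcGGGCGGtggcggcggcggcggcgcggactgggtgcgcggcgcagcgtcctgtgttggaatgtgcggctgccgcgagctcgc
SYN1: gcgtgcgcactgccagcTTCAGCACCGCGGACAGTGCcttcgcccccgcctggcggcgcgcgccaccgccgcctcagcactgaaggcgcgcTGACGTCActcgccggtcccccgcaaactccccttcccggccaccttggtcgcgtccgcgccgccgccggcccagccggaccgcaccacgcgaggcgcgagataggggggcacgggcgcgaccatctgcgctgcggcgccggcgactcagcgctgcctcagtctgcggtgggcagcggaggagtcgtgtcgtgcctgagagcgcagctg
The upstream TUBB3 start held 9 CpG and no GC box, and the main start 47 CpG, 5 GC boxes and 1 CCAAT on the other strand. The REST promoter shown held 44 CpG and 3 GC boxes, and a second one in RefSeq, at chr4:56908660-56908959, held 46 CpG and 2 GC boxes and was under a peak in all 8 lists. SYN1 held 46 CpG, no GC box, 1 response element and the RE1 match. Of 35116 RefSeq promoters of the same length, 45.0% held a GC box, 1.85% the response element, 34.6% CCAAT and 11.5% TATAAA. A match is a description of the letters and not a binding site. The INA promoter (chr10:103276888-103277187) held 35 CpG and 4 GC boxes and was under a peak in all 8 lists.

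The 8 peak lists held 55527 to 62044 peaks each. The relative depth that the fold and p-value columns give back, the genome-wide background in fragments, was 2.52 to 2.93 in H2A and 2.23 to 2.68 in E92K. Total read numbers were not analysed here. A deeper library allows weaker peaks to be called, so absence from a list says that no peak was called and not that the chromatin was closed. In pooled cells, fewer cells with an exposed site and less exposure per cell cannot be told apart. Merging the lists gave 96872 accessible regions, of which 47 lay in the windows of the 10 genes.

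The kidney label and the neuronal traits of the line were checked on marker promoters, where a promoter is the stretch within 1000 bp of an annotated start of a coding transcript. All 6 nephron progenitor markers had a promoter peak in all 8 lists, among them EYA1, LHX1 and PAX2. Of the blood markers, PTPRC had a peak in 1 E92K library, and CD14 and CD3E had none. Of 3 liver markers, TTR had a peak in all 8, ALB had none and APOA1 had 1 in an E92K library. Of the glial markers, AQP4, MBP and OLIG2 had a peak in all 8, GFAP and MOG had none and S100B had one in 2 H2A libraries. Of 25 other neuronal cytoskeleton and synapse genes, 22 had a promoter peak in all 8 lists, beside 68.0% of coding genes, ANK2, ANK3, DCLK1 and DLG4 among them, while DCX and PRPH had none and STMN4 had one in 2 H2A libraries.

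Promoter peaks were called at 8 of the 10 genes in all 8 libraries, a count that stands beside 68.0% of the 19617 coding genes that have an annotated start of a coding transcript in the GENCODE basic set. The exceptions were NEFH and STMN2. Each promoter's strength was described by its percentile, the share of the peaks of its own list that had a weaker p-value, so that 100 is the strongest. Over the 13345 coding genes with a promoter peak in every library the median of the mean percentile was 88.4, with quartiles of 77.8 and 94.7. The highest mean among the 10 genes, 82.2 at REST, was below that median. Folds and p-values are the authors' values for each peak, a fold being the summit's pileup over its local background, and they describe a peak within its own list only.

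**Figure D1:**
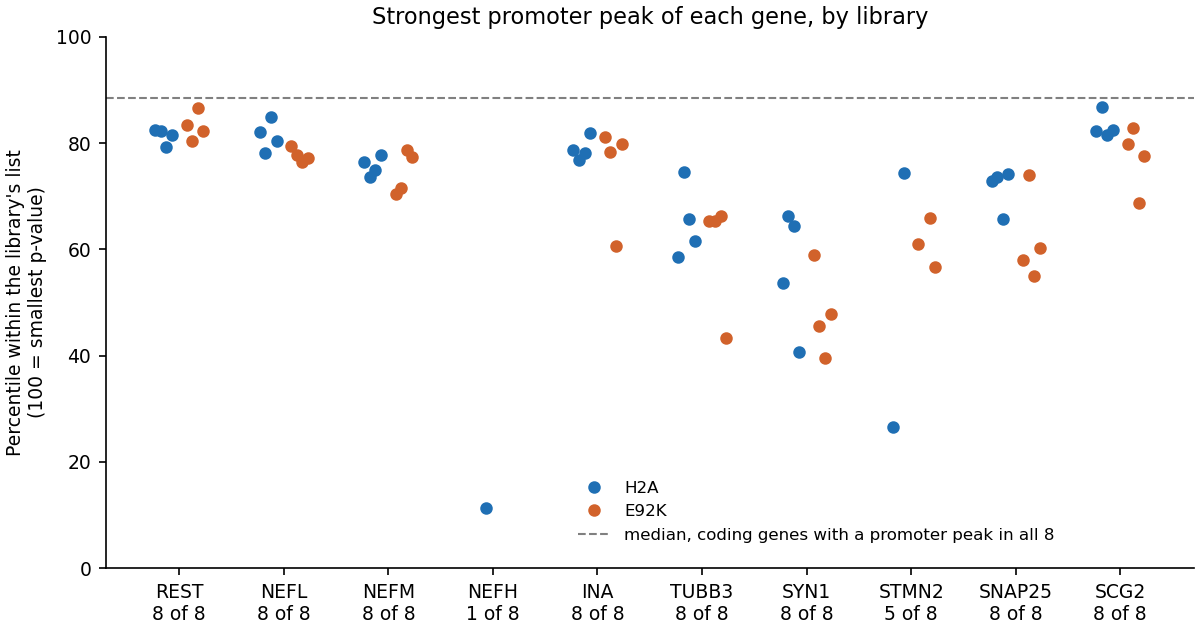
Within-list percentile of the strongest promoter peak (vertical axis, percent, 100 being the strongest) for each gene, with 1 point per library, colours for the H2A and E92K groups, and a dashed line at 88.4, the median of coding genes. REST lies between 79.2 and 86.5 in all libraries, SYN1 between 39.5 and 66.2, and NEFH has 1 point, at 11.4.

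The plot of promoter percentiles orders the genes by mean as REST (82.2), SCG2 (80.2), NEFL (79.5), INA (76.9), NEFM (75.1), SNAP25 (66.7), TUBB3 (62.6) and SYN1 (52.1). STMN2, with a mean of 56.9 over 5 libraries, and NEFH, with 11.4 in 1, are not ranked with them. The STMN2 mean mixes different sites. Its value in H2A replicate 2, 26.5, is of a weak peak beside the start, and the others are of a region further in. That inner region was called in all 8 lists and reaches within 1000 bp of a coding start in some only. Neighbours in that order overlapped in their ranges over the 8 libraries. REST, with its lowest value at 79.2, stood above every value of NEFM, SNAP25, TUBB3 and SYN1, whose highest were 78.6, 74.2, 74.5 and 66.2. The coding genes with the percentiles most like those of REST over the 8 libraries, among 13344 compared, were SLC48A1, NRN1 and ZNF483, with mean absolute differences of 1.18, 1.2 and 1.44 points.

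The REST gene (ENSG00000084093.19) spans chr4:56907876-56966808 on the plus strand of hg38. Its promoter peak formed a region of 2437 bp, chr4:56907180-56909616, that covers all 5 annotated coding starts. The peak ranked 10509, 10204, 12240 and 11405 in the H2A lists and 9730, 12134, 7753 and 9841 in the E92K lists. Folds were 5.54, 5.43, 5.33 and 5.42 in H2A and 5.92, 5.2, 6.63 and 6.17 in E92K. The E92K folds were more spread than the H2A folds. Replicate 2 of E92K, at 5.2, lay below all of the H2A values, and the other E92K folds lay above all of them. The means were 5.43 ± 0.08 (SD, n = 4) in H2A and 5.98 ± 0.6 (SD, n = 4) in E92K. The summit stood 511 to 628 bp inside the gene in every library, between the 3 starts at its 5′ end and the other starts 1290 and 1661 bp downstream.

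The upstream edge of the REST promoter peak did not overlap between the groups, a difference that did not pass the adjustment over all promoters. It lay 692, 720, 685 and 687 bp upstream of the main start in the H2A libraries and 358, 543, 404 and 363 bp upstream in the E92K libraries. Every E92K peak thus began closer to the gene than every H2A peak. The mean edge was at -696 bp ± 16.3 (SD, n = 4) in H2A and at -417 bp ± 86.5 (SD, n = 4) in E92K, 279 bp closer to the gene. With 4 against 4 libraries the exact two-sided permutation test gave its smallest possible p, 0.029, and a Benjamini-Hochberg adjusted p of 0.895 over 12908 promoters. Even the smallest possible p passes this adjustment only if most promoters reach it. Non-overlapping edges were found at 2.97% of those promoters, and at 2.06% with the E92K peak shorter. The edge was examined after the peaks had been seen. It stayed separated with any 1 library left out, which cannot undo a separation. The REST edges were the same with peaks of a q-value of 1e-05 or less only, and with lists cut to 1 common number of peaks. The REST peaks, at percentiles of 79.2 or more, pass both filters, so none of these settings tests the difference. Of the other 7 genes with a promoter peak at the main start in every list, none was separated: SCG2 differed most, by 98.2 bp with an exact permutation p of 0.143. The depth, given above, ranged lower in the E92K libraries, and its part in the edges was not tested.

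**Figure D2:**
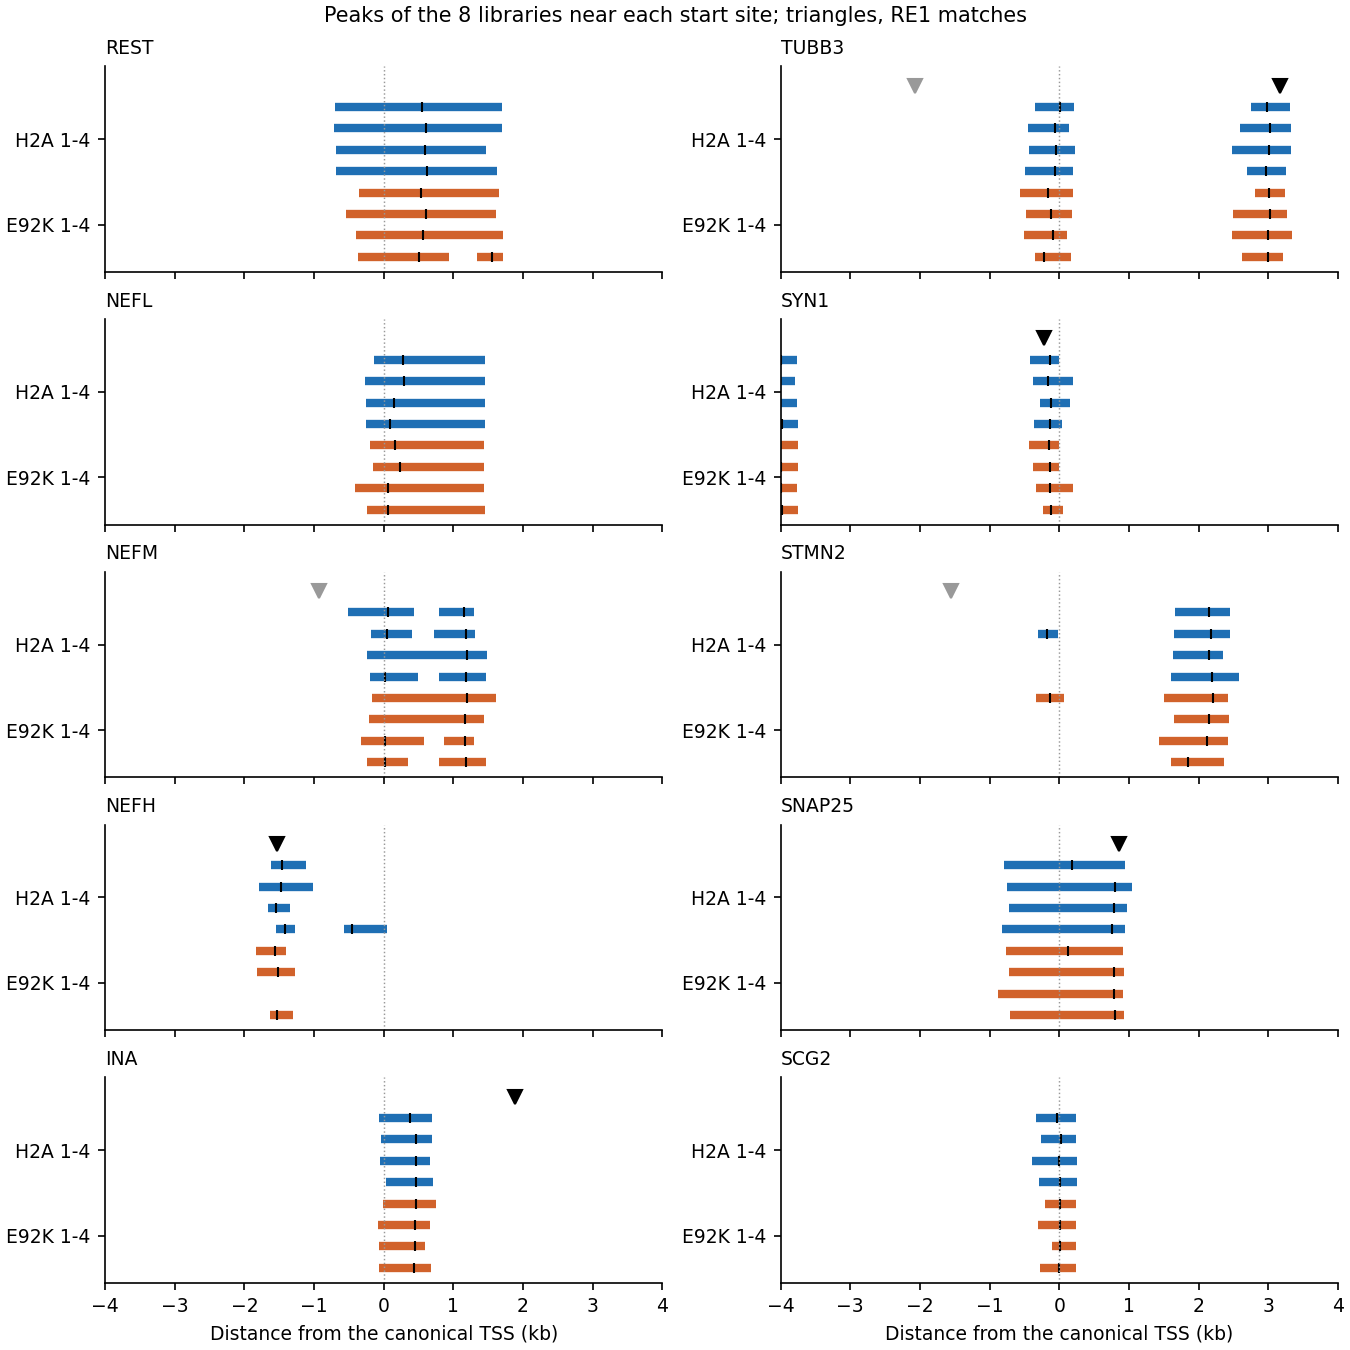
Extent of the called peaks around the main transcription start of each gene (horizontal axis, distance in kb, downstream to the right), 1 row per library with H2A and E92K in separate colours, a tick at each summit and triangles at RE1 matches. At REST the left ends of the 4 H2A peaks lie at -685 to -720 bp and those of the 4 E92K peaks at -358 to -543 bp.

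Inside REST, 4 intronic and 2 exonic regions were called besides the promoter. The intronic region 52.7 kb downstream, chr4:56960237-56961045, was present in all 8 lists, at percentiles of 8.6 to 50.5, with a fold of 3.33 ± 0.74 (SD, n = 4) in H2A and 3.21 ± 0.52 (SD, n = 4) in E92K. The intronic region 40.1 kb downstream, chr4:56947613-56948380, was called in all 4 H2A libraries and in 1 E92K library. It was weak, at percentiles of 0.0731 to 29.7, with 18 to 31 fragments at its summits. Fisher's exact test gave p = 0.143 for it, and 1.0 after Benjamini-Hochberg adjustment over all regions. The intronic regions 8.13 and 50.4 kb downstream were called in 3 and 2 libraries, and the exonic sites in 1 library each. The third region called in all 8, 70.3 kb downstream, is the promoter shared by NOA1 and POLR2B.

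The neurofilament genes differed among themselves. NEFL, the light subunit on which the other subunits assemble, and NEFM, the medium subunit, both had a promoter peak in all 8 lists, whereas NEFH, the heavy subunit, had one in 1 list. NEFL (chr8:24950955-24956721, minus strand) held a single region in its whole window, chr8:24955157-24957020, over its start. Its percentiles were 82.1, 78.1, 84.9 and 80.4 in H2A and 79.5, 77.7, 76.4 and 77.2 in E92K. The groups overlapped, and so did the folds, 6.49 ± 0.6 (SD, n = 4) in H2A and 5.99 ± 0.31 (SD, n = 4) in E92K.

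NEFM (chr8:24913758-24919098, plus strand) had percentiles of 76.4, 73.6, 74.9 and 77.8 in H2A and 70.4, 71.6, 78.6 and 77.3 in E92K, which overlapped. The strongest summit stood 1151 to 1196 bp inside the gene, at the coding start annotated 1181 bp downstream of the main one. In H2A replicates 1, 2 and 4 and E92K replicates 3 and 4, a separate, weaker peak covered the main start. Its summits lay 12 to 55 bp inside the gene. An RE1 match with 2 mismatches lay 923 bp upstream of NEFM and was under no peak in any list; the nearest peak edge was 417 to 748 bp away. A further region 7.72 kb upstream, chr8:24905517-24906564, was called in all 8 lists with folds of 7.66 ± 1.69 (SD, n = 4) and 6.61 ± 0.92 (SD, n = 4) in H2A and E92K.

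NEFH (chr22:29480218-29491390, plus strand) had its only promoter peak, chr22:29479649-29480259, in H2A replicate 4, with a fold of 2.97 and a percentile of 11.4. That library had the highest depth of the 8, 2.93. The stronger sites of the NEFH window lay upstream. A region 9.84 kb upstream, chr22:29469775-29470972, was present in all 8 lists at percentiles of 77.0 to 89.0. A region 1.43 kb upstream, chr22:29478389-29479195, was called in 4 H2A and 3 E92K libraries, and it held an RE1 match with 1 mismatch, 4 to 108 bp from the summits. At NEFH, then, the peak over the RE1 match was called more often than the one at the start.

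INA (chr10:103277138-103290346, plus strand), the internexin subunit, had a promoter region of 827 bp, chr10:103277060-103277886, that is also a promoter of NT5C2. Its percentiles were 78.7, 76.8, 78.2 and 81.8 in H2A and 81.1, 78.4, 60.7 and 79.9 in E92K. E92K replicate 3 was the low value, with a fold of 5.24 against a group mean of 7.45 ± 1.52 (SD, n = 4) and an H2A mean of 7.38 ± 0.78 (SD, n = 4). The intronic RE1 match shown above was not under a peak in any list, and the nearest edge, that of the promoter peak, was 1132 to 1281 bp away. The match 11.2 kb upstream, in an intron of NT5C2, was under a weak peak in 2 H2A and 1 E92K libraries.

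TUBB3 (chr16:89921392-89938761, plus strand) had its promoter peak, chr16:89922776-89923567, at the main start. Folds there were 3.14, 4.21, 3.47 and 3.27 in H2A and 3.6, 3.41, 3.63 and 2.73 in E92K, and percentiles ran from 43.4 to 74.5. The groups overlapped, with E92K replicate 4 lowest and H2A replicate 2 highest. An intronic region 2.91 kb downstream, chr16:89925819-89926685, was also present in all 8 lists. Its folds were 3.88, 4.14, 4.4 and 4.49 in H2A and 4.87, 4.18, 5.08 and 4.91 in E92K, which overlapped, and its percentiles ran from 67.9 to 77.4. This is the region that holds the intronic RE1 match with 1 mismatch, which lay 140 to 201 bp from the summits. Other regions of the window that were called in every list belonged to neighbours: an intron of TCF25 and the promoters of MC1R and DEF8. A DEF8 intron 34.9 kb downstream was called in 4 H2A and 2 E92K libraries (Fisher's exact p = 0.429).

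STMN2 (chr8:79611117-79666158, plus strand) had little signal at its main start. A region beside it, chr8:79610790-79611191, was called in H2A replicate 2, where the peak ended 11 bp before the start (fold 3.09), and in E92K replicate 1, where it ran over the start (fold 2.55). The other 6 lists had no peak there. The main site of the gene lay further in: chr8:79612552-79613703 was present in all 8 lists, at percentiles of 54.4 to 74.3, with summits 1843 to 2203 bp downstream of the start. Folds there were 5.68 ± 0.85 (SD, n = 4) in H2A and 5.43 ± 0.31 (SD, n = 4) in E92K. Within 1000 bp of a coding start, a peak of either region was found in 5 libraries, 2 H2A and 3 E92K. Of the introns of STMN2, the one 30.8 kb downstream was called in 3 H2A and no E92K libraries (Fisher's exact p = 0.143), and the one 41.9 kb downstream in 1 H2A and 3 E92K libraries. An RE1 match 1.56 kb upstream, with 2 mismatches, was under no peak.

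SYN1 had the lowest mean percentile of the 8 members with a promoter peak in every list. The gene (chrX:47571901-47619857, minus strand) had its promoter region at chrX:47619655-47620289. Folds were 4.12, 5.38, 5.17 and 3.34 in H2A and 5.02, 3.9, 3.68 and 4.37 in E92K, with percentiles of 53.7, 66.2, 64.4 and 40.6 and of 58.9, 45.5, 39.5 and 47.9. Both groups held high and low libraries and overlapped. The summits lay 119 to 167 bp upstream of the start, and the RE1 match of the SYN1 promoter shown above lay 57 to 105 bp from them, under a peak in every list. TIMP1, a metalloproteinase inhibitor whose promoter lies within SYN1 and 37.5 kb from its start, was called in all 8 lists, as was an exon of CFP 4.03 kb upstream of SYN1.

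SNAP25 (chr20:10172395-10308258, plus strand) had a promoter region of 1921 bp, chr20:10217951-10219871, over its 11 annotated coding starts. Folds were 6.1, 6.46, 5.62 and 6.53 in H2A and 5.24, 6.85, 4.78 and 5.79 in E92K, and the groups overlapped. In 6 libraries the summit stood 765 to 805 bp inside the gene, and in H2A replicate 1 and E92K replicate 1 it stood at 182 and 120 bp. An RE1 match with 1 mismatch lay 852 bp inside the gene, under the peak in all 8 lists and at a median of 71 bp from the summit. A region 46.3 kb upstream of the main start, at the 5′ end of the gene span, was called in 3 H2A and 1 E92K libraries.

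SCG2 (chr2:223596940-223602361, minus strand) had the highest folds of the 10 promoters. They were 12.6, 15.36, 13.19 and 12.86 in H2A and 12.8, 14.03, 9.4 and 12.67 in E92K. The groups overlapped, and E92K replicate 3 was the low library, at a percentile of 68.7 against 77.5 or more in the others. The promoter region, chr2:223602103-223602749, had summits within 32 bp of the start and a GC content of 41.0%, the lowest of the promoters called in every library. A region 10.9 kb upstream, chr2:223612854-223613761, was called in all 8 lists with folds of 8.14 ± 1.56 (SD, n = 4) and 8.91 ± 0.96 (SD, n = 4) in H2A and E92K. The same library was the low one at INA.

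Of the 47 regions in the 10 windows, 22 were present in all 8 lists, 46.8% beside 38.1% of all regions. A further 16 were present in 2 to 7 lists and 9 in 1. No region was called in all 4 libraries of a group while missing from all 4 of the other, beside 0.323% of all regions. Fisher's exact test over all regions gave 313 with an unadjusted p under 0.05 and 0 after Benjamini-Hochberg adjustment. By place, 9 of the 11 regions at a member's own promoter were called in every list, and so were all 5 at a neighbour's promoter, 2 of 9 in a member's intron and 4 of 13 between genes. The same shares and medians over all promoter, intronic and intergenic regions are not given here. These counts and the medians below therefore describe the 47 regions and show no trait particular to these genes. The own-promoter regions called in every list, that of STMN2 2.01 kb inside the gene among them, were wide and rich in CpG. They had a median width of 1152 bp and a CpG content of 0.854 of that expected from base composition. Regions called in every list away from promoters had medians of 887 bp and 0.535. Widths are those of merged peaks, so a region called in more lists can be wider for that reason. The 25 regions missing from at least 1 list had medians of 487 bp and 0.263, and their median percentiles ran from 0.583 to 51.0.

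**Figure D3:**
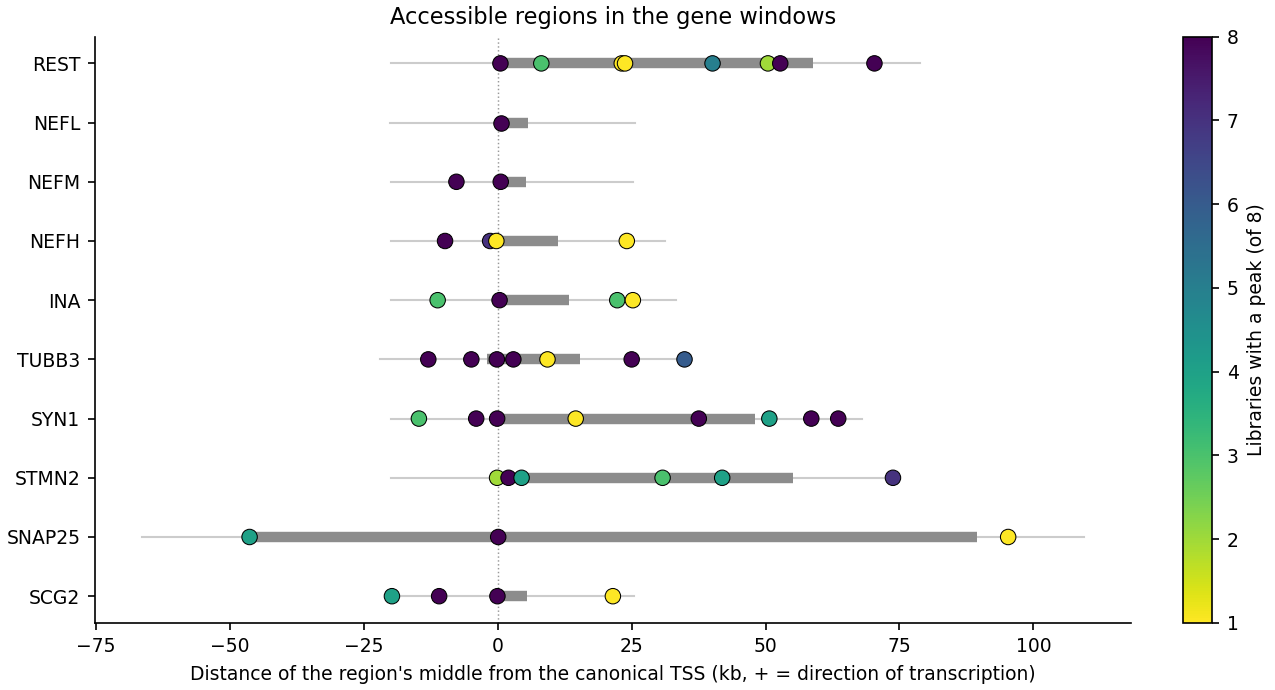
Every accessible region in the windows of the 10 genes, placed by its distance in kb from the main start (horizontal axis), 1 row per gene with the gene span as a thick bar and the colour giving the number of libraries that called the region. Of the 47 regions, 22 are called in all 8 libraries and 9 in a single one.

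RE1 matches were more frequent in these windows than elsewhere, 7 of 10 windows against 13.2% of all coding windows. The genes were chosen with REST in view, so this share is a description. Of the 9 matches, 3 were under a peak in all 8 lists (SYN1, SNAP25 and the TUBB3 intron), beside 7.2% of the 3138 matches on the analysed chromosomes and 9.64% of the 2158 in windows of coding genes, and 4 were under none. Over all matches, the share under a peak in every list was higher for closer matches, from 4.25% of 2354 matches with 3 mismatches to 28.2% of 188 with 1 mismatch and 37.5% of 24 without any. Each of the 3 called in every list had 1 mismatch, as did the NEFH match (7 lists) and the INA intron match (none).

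Other genes of the REST system were counted in the same way, to be read beside the 68.0% of coding genes called in every list and their median percentile of 88.4. Of 22 cofactors and regulators of REST, 21 had a promoter peak in all 8 lists, BTRC, CTDSP1, CTDSP2 and CTDSPL among them, with a median percentile of 87.8. SRRM4, a splicing factor that makes the neuronal form of REST, had none in any list. Of 17 other neuronal genes known as REST targets, 15 had a promoter peak in every list, among them BDNF, CELSR3, CHGA and CHGB, with a median percentile of 73.5. GLRA1 and CPLX1 had one in 3 H2A and 4 E92K libraries. No gene of either list was called in all 4 libraries of a group and 0 of the other, a pattern that only 6 of 19617 coding genes showed.

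The length covered by peaks was compared between the groups over each gene's window. For REST it was 6690, 5680, 6366 and 6346 bp in H2A and 5026, 5098, 6170 and 4545 bp in E92K. E92K replicate 3 lay among the H2A values, and the other 3 lay below them. The means were 6270.5 ± 424.1 and 5209.8 ± 685.6 bp (SD, n = 4 each), a difference of -1060.8 bp with an exact permutation p of 0.0571 and an adjusted p of 0.701. With equal numbers of peaks per list the difference was -628.5 bp, with an exact permutation p of 0.2. With peaks of a q-value of 1e-05 or less only, it was -999.8 bp, and the groups no longer overlapped (exact permutation p = 0.029, adjusted p = 0.647), as was so for 4.42% of 18299 windows at that setting.

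For STMN2 the covered length was 2720, 2071, 2438 and 2565 bp in H2A and 2346, 2230, 1757 and 1033 bp in E92K (difference -607 bp, exact permutation p = 0.114). For SNAP25 it was 2439, 2087, 1984 and 1762 bp in H2A and 1669, 1643, 1800 and 1866 bp in E92K (difference -323.5 bp, exact permutation p = 0.0857). In both genes the groups overlapped. The remaining 7 genes had exact permutation p of 0.143 (TUBB3) to 0.914 (SYN1). Over the 10 genes the groups separated at none, beside 4.39% of the 18623 coding windows with a peak. The mean was lower in E92K at 7 genes and higher at 3, beside 63.4% of all windows with a lower mean in E92K. Over all windows, 817 had an exact permutation p under 0.05 and 0 had an adjusted one, the smallest being 0.651. Here too, the adjustment can be passed only if most windows reach the smallest possible p. The 0 does not show that the groups are alike.

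**Figure D4:**
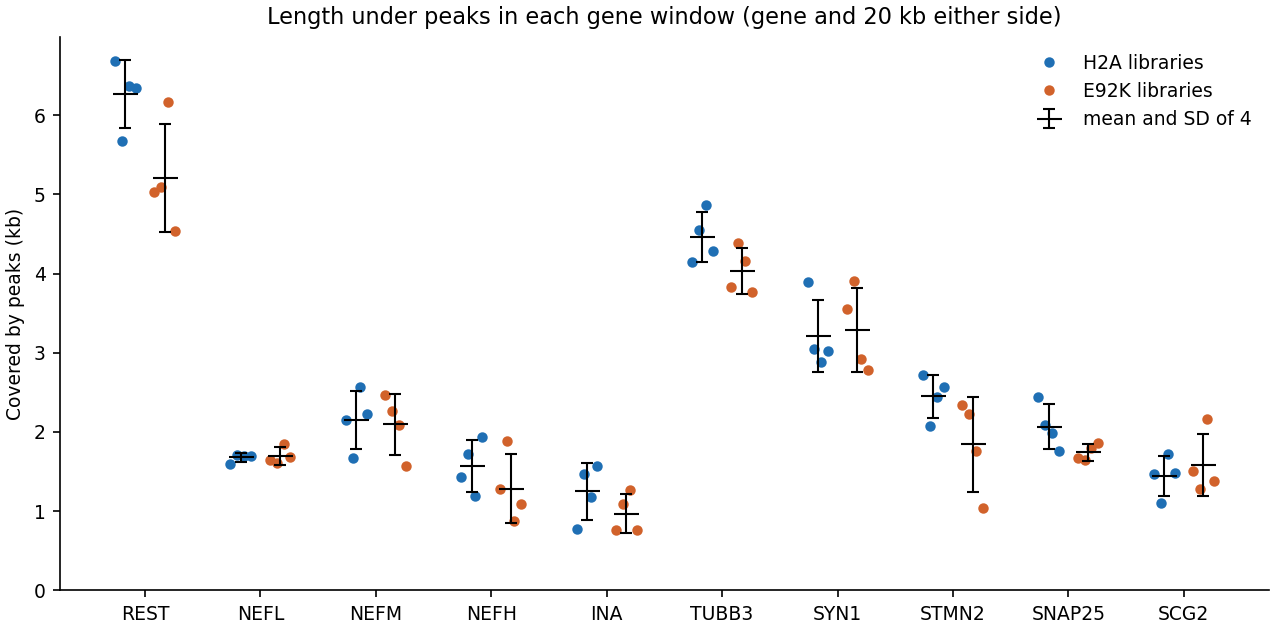
Length covered by peaks in the window of each gene (vertical axis, kb), 1 point per library with the mean and SD of the 4 H2A and the 4 E92K libraries. At REST the E92K mean is 5209.8 bp and the H2A mean 6270.5 bp, with E92K replicate 3, at 6170 bp, among the H2A values.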

How the data were processed

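Each of the 8 libraries, grouped by the genotype in its label, had 1 list of peaks in narrowPeak layout, called per sample. Reads were aligned to hg38, per the labels. The aligner, the peak caller, read shifting and duplicate handling were not given in the sources used here, and each can change peak width and number. The deposited score is 10 times the −log10 q-value, rounded down. The deposited fold is a ratio of summit pileup to local background, and the columns of −log10 p-value and −log10 q-value were deposited with no q-value above 0.01. The deposited summit offset is in bp from the peak start.

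The members and lists were chosen with earlier results of these data known. By the rule for named genes, all members are described; of each list, genes called in some libraries only are named, plus up to 4 examples in alphabetical order, and the 3 genes nearest to REST in percentile. Some listed genes absent from every peak list are named too, chosen after their values were seen; a few markers are not reported here. Peaks of the 8 lists were merged where they overlapped or touched, with presence in a library set at 1 bp of overlap or more. Annotation was GENCODE version 44. Presence was tested with Fisher's exact test per region, and covered length with an exact two-sided permutation test over 70 assignments, with Benjamini-Hochberg adjustment over all regions or windows. The smallest p either allows is 0.029. Depth was read back from the fold and p-value of each summit, for 99.8% or more of summits in each list. The margin was 0.001 of the −log10 p and was wider for stronger peaks. The permutation test was tested on simulated data. Python 3.11.15, numpy 2.4.6, pandas 2.3.3, scipy 1.17.1 and matplotlib 3.10.9 were used. Alternatives were a stricter q-value, other windows and promoter widths, equal numbers of peaks, a 50% overlap, a replicate block and leaving out each library. The edge of the promoter peak was added after seeing the data.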

Additional observations from a re-analysis of the deposited data

Results flagged for a closer look

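In 2 of the 38 groups of 4 libraries examined, 1 library stood apart from the other 3 by nearly the whole range of the group, which chance gives in about 1 group in 20. The NEFL window was covered over 1598 bp in H2A replicate 1, against 1698 to 1714 bp in the other H2A libraries. The SYN1 window was covered over 3889 bp in H2A replicate 1, against 2889 to 3046 bp in the other H2A libraries. Both are covered lengths. Some promoter percentiles also stood apart by nearly the whole range of their group and are not in that count. The count is therefore not to be read as a rate for all values. In percentile, 1 E92K library was also far below the others at TUBB3 (43.4 against 65.3 to 66.2) and INA (60.7 against 78.4 to 81.1). At SNAP25, 1 H2A library was (65.7 against 72.8 to 74.2).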

How the results depend on the processing

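The 8 promoters called in every library stayed 8 under 11 of 12 alternatives and were 9 with a promoter of 2000 bp, where STMN2 joined them. The number of regions called in all 8 libraries, 22, became 35 with a window of 50 kb, which takes in more regions, 18 with a window of 10 kb, 19 with a 50% overlap and 21 with a q-value of 1e-05 or less, and was 22 to 23 with 1 library left out. Regions called in all 4 libraries of a group and 0 of the other, numbering 0, became 1 with the 50 kb window (38.9 kb upstream of SCG2, present in E92K) and 0 to 1 with 1 library left out: the REST intron 40.1 kb downstream without E92K replicate 3, and the STMN2 intron 30.8 kb downstream without H2A replicate 3. The number of genes whose covered length separated the groups, 0, became 1 (REST) with a q-value of 1e-05 or less, and 0 to 2 with 1 library left out: REST and STMN2 without H2A replicate 2, SNAP25 without H2A replicate 4, and REST without E92K replicate 3, all lower in E92K. With the replicate block, the differences within the 4 pairs were all lower in E92K at 2 genes, REST and TUBB3, where 4 pairs allow no exact p below 0.125. The shares of all regions and windows with 1 library left out or with the replicate block are not given here. Groups of fewer libraries also separate more easily. At the main setting, 63.4% of all windows had a lower mean in E92K. Same-number correlations between the groups were -0.069 to 0.018, and 0 of 8 libraries correlated best with their own number. Correlations of unlike numbers were -0.046 to 0.076, all weak too, so this measure cannot tell whether the numbers mark pairs. The 3 RE1 matches under a peak in every library became 4 with up to 4 mismatches or without E92K replicate 3. Depth limits which weak peaks were called.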
